A study of Arabidopsis thaliana with 60 samples.

Results

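The genes described are the superoxide dismutases and catalases of Arabidopsis thaliana. They were chosen by locus identifier: CSD1 (AT1G08830), CSD2 (AT2G28190), CSD3 (AT5G18100), FSD1 (AT4G25100), FSD2 (AT5G51100), FSD3 (AT5G23310), MSD1 (AT3G10920), CAT1 (AT1G20630), CAT2 (AT4G35090) and CAT3 (AT1G20620), which are 10 of the 32833 genes in the deposited table. The choice by identifier used no measured value, but it was made with earlier results of these data known. RNA-seq was made from wild-type Col plants at bolting, either from the stressed leaf itself or from the untreated stem of plants whose leaves were stressed. There were 20 groups of 3 libraries, 11 of leaf and 9 of stem.

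All plants were grown at 23 °C in a day of 14 h under 50 µmol of light, and all 20 groups share that background. High light (HL) was 1700 µmol from a gooseneck lamp on 1 leaf, and heat stress (HS) came from a heat block 2 cm beneath a leaf. HL+HS put both on the same leaf. HL&HS put HL on one leaf and HS on another leaf of the same plant. Leaves were taken after 2 or 8 min, or untreated as the control at 0 min. For HL&HS the HL leaf and the HS leaf were sequenced as separate groups, while the stem gave 1 group at each time. For the leaf groups with a single stress at 8 min the title and the treatment entry disagree, and the title was followed. Nothing in the labels says whether the 3 libraries of a group came from separate plants, so the p-values measure only the spread between these libraries, which may be technical.

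Superoxide dismutases turn superoxide into hydrogen peroxide and oxygen, and catalases break hydrogen peroxide down to water and oxygen. The dismutases are named for their metal: CSD1 to CSD3 carry copper and zinc and sit in the cytosol, the chloroplast and the peroxisome, FSD1 to FSD3 carry iron and are mostly plastid proteins, and MSD1 carries manganese and sits in mitochondria. The catalases are peroxisomal, and in leaves CAT2 removes the hydrogen peroxide made by photorespiration. The copper–zinc enzymes and FSD1 are known to be exchanged with copper supply, through the microRNA miR398 and the transcription factor SPL7.

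The values are normalised counts, that is, reads divided by a size factor per library. The 33 libraries of 0 and 8 min held 11071918 to 12998149 reads and the 27 libraries of 2 min held 31725824 to 47559552, so depth and the 2 min time cannot be told apart. Every comparison of a stress with control within a tissue uses the same 3 control libraries. In the tests, called means an adjusted p under 0.05 in limma with Benjamini-Hochberg adjustment over all genes tested, and differences are on the log2(normalised count + 1) scale. The tissue labels were checked on 10 secondary-wall genes of the stem, whose summed level was 966 normalised counts in control leaf. In stem it was 88423 normalised counts in the control and between 40049 and 66353 in the stressed groups, with 8 or 9 of the 10 called lower in each stem comparison. The part of this difference in the stem results was not tested. In bulk tissue, fewer cells of a type and less RNA per cell cannot be told apart.

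Across the 10 leaf comparisons with control, 50 of the 100 results for the 10 genes were called, 36 higher and 14 lower, and in 2 of them the difference reached 2-fold. Of all genes tested, 18.3% to 42.4% were called in these comparisons. In the 8 stem comparisons, where 30.8% to 43.7% of all genes were called, the 10 genes had 47 of 80 called, 32 higher and 15 lower, with 3 at 2-fold or more. Most of the differences were therefore small beside the changes of FSD1, which supplied each of those at 2-fold or more. The calls also made by edgeR's quasi-likelihood test, by DESeq2, by limma on the compared groups alone and, at 8 min, by limma on the 0 and 8 min libraries alone were 41 of the 50 in leaf and 45 of the 47 in stem. The last of these fits was chosen after seeing the data.

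**Figure D1:**
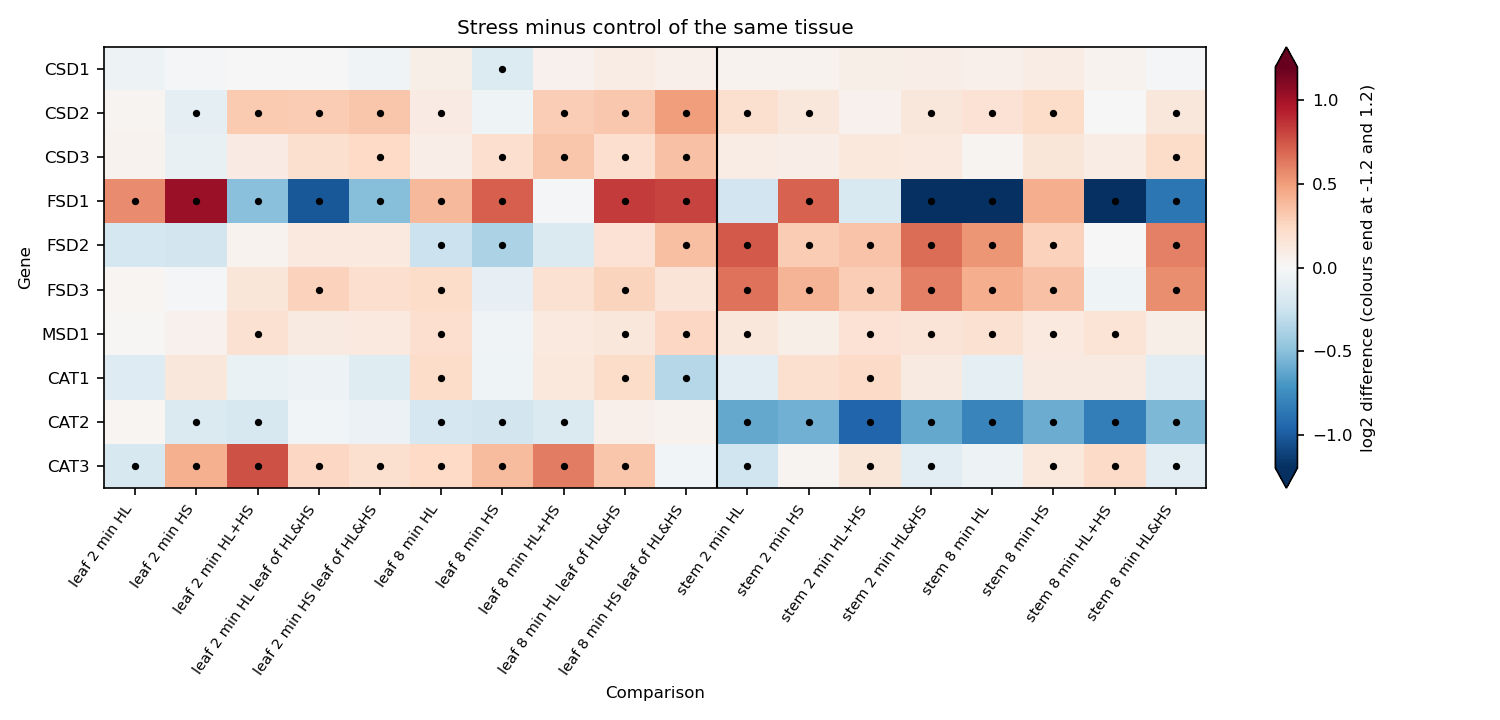
Each cell gives the log2 difference between a stressed group and the control of the same tissue, for 10 genes (rows) and 18 comparisons (columns, leaf left of the line and stem right of it), with 3 libraries a group and a dot where limma called the gene. FSD1 has the deepest colours in both directions, CAT2 is lower throughout stem, and CSD1 has a single dot.

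In leaf after 2 min of HL, 1 gene rose and 1 fell, where 13.1% of all genes tested rose, 6.77% fell and 19.9% were called in all. After 2 min of HS 2 rose and 2 fell, where 11% of all genes rose and 7.25% fell, 18.3% in all. Under HL+HS at 2 min 3 rose and 2 fell, where 18.2% of all genes rose and 15.5% fell, 33.7% in all. Among 10 genes a single call moves the share by 10 percentage points, and none of these shares was tested against the background. In leaves of HL&HS plants at 2 min the counts were 3 higher and 1 lower each. Of all genes, 15.6% rose and 10.9% fell in the HL leaf, 26.4% in all. The figures for the HS leaf were 18.4% and 12.5%, 30.9% in all.

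At 8 min under HL 6 of the genes rose and 2 fell in leaf, where 18.9% of all genes rose and 14% fell, 32.9% in all. The 8 calls came down to 5 with DESeq2, to 3 when only the compared groups were fitted and to 4 when the 0 and 8 min libraries alone were fitted. The calls over all genes also fell, from 5997 of 18231 to 5093 of 18231 with DESeq2 and to 3490 of 18288 with only the compared groups. Under HS 3 rose and 3 fell, where 19% of all genes rose and 14.1% fell, 33.1% in all. With HL+HS 3 rose and 1 fell, against 18% and 17.5% of all genes, 35.5% in all. In the HL leaf of HL&HS plants 7 rose and none fell, against 17.4% and 11.5% of all genes, 28.9% in all, and edgeR and DESeq2 called 4 each. Of the 18231 genes tested, limma called 5273 there, edgeR 4367 and DESeq2 4354. For the HS leaf 5 rose and 1 fell, against 24.6% and 17.8% of all genes, 42.4% in all. The counts for HL+HS leaves at 8 min were close to the background.

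In stem after 2 min of HL 4 of the genes rose and 2 fell, where 21% of all genes rose and 21.9% fell, 42.8% in all. HS gave 4 higher and 1 lower, against 15.7% and 15% of all genes, 30.8% in all. HL+HS gave 5 higher and 1 lower, against 17.8% and 18.5%, 36.2% in all. For HL&HS there were 4 higher and 3 lower, against 19.9% and 21.1%, 41% in all. FSD2 and FSD3 were among the higher calls and CAT2 among the lower in all 4.

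At 8 min in stem HL gave 4 higher and 2 lower, where 22% of all genes rose and 21.7% fell, 43.7% in all. HS gave 5 higher and 1 lower, against 17.9% and 16.5% of all genes, 34.4% in all. HL+HS gave 2 of each, against 18.1% and 15.4%, 33.6% in all. For HL&HS there were 4 higher and 3 lower, against 20.6% and 22.3%, 42.9% in all. The lowest mean of the 10 genes over leaf libraries was 350 normalised counts, close to the median of 351 over all genes tested there, while in stem FSD1 was lowest, at a mean of 44.0.

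In control leaf CAT2 had the highest level of the 10 per length, at 46902 normalised counts per kb of exon, followed by CSD2 at 14030.5, CSD1 at 7526, CAT3 at 3362 and MSD1 at 2089. FSD1 stood at 690 per kb, CSD3 at 471, FSD3 at 258, FSD2 at 239 and CAT1 at 158. FSD3 and FSD2 were close, and among the 11 leaf groups they exchanged places, as did FSD1 and CSD3, while the order of the other genes held. Scaled by coding length FSD1 stayed above CSD3 in all 11 groups and passed MSD1 under HS at 2 min. CAT2 made up 93% of the catalase level per kb in control leaf and CSD2 made up 55.4% of the dismutase level.

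In control stem CAT3 led instead, at 15306 normalised counts per kb of exon, and made up 72.5% of the catalase level, with CAT2 at 26.8%. CSD2 stood at 7652 per kb and CSD1 at 7584, which differed by less than the spread between libraries, and by coding length CSD1 was the higher. MSD1 followed at 2181, then FSD3 at 358, CSD3 at 312, CAT1 at 167 and FSD2 at 153, and FSD1 was lowest at 36.0. Scaled by coding length in place of exon length, CAT2 was still first in leaf and CAT3 first in stem, and CAT1 was last in leaf and FSD1 last in stem. The exon lengths are unions over all annotated transcripts, which is 3385 bases for CAT3 and 2767 for CAT2.

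Tested between the control tissues, 7 of the 10 genes were called, as were 82.9% of all genes tested. The differences as leaf minus stem were 4.24 for FSD1, 3.05 for CAT2, 0.88 for CSD2, 0.64 for FSD2 and 0.59 for CSD3 on the log2 scale. CAT3 (-2.19) and FSD3 (-0.47) were higher in stem. For FSD1 the normalised counts were 1079, 1064 and 1074 in the control leaf libraries and 55.7, 48.0 and 64.2 in the control stem libraries. CAT2 read 130081, 128944 and 130310 in leaf and 15818, 15719 and 15377 in stem. CAT3 was the opposite, at 10884, 11997 and 11265 in leaf and 52383, 50923 and 52126 in stem, and none of these sets overlapped. CSD1 (leaf minus stem -0.01), MSD1 and CAT1 were not called.

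The copper–zinc dismutases were taken first. CSD1 and CSD2, with their chaperone CCS1, which inserts the copper, are known targets of miR398. The mature miR398 sequences and the closest match to them in each transcript are shown because CSD1, CSD2 and CCS1 did not change alike. They were read from RefSeq TAIR10.1, with the seed (bases 2 to 8) in capitals in the microRNAs and the bases that form Watson-Crick pairs in capitals in the sites, so that mismatches and G:U pairs are in lower case. All 3 mature forms share 1 seed, and the b and c forms are identical.
ath-miR398a-3p: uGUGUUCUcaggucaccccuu
ath-miR398b-3p and ath-miR398c-3p: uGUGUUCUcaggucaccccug
CSD1 site: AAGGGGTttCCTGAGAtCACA
CSD2 site: tgcGGGTGACCTGgGAAacat
CCS1 site: AttGGGaGACCTGgGAACACt
The CSD1 site lies in the 5′ UTR on chromosome 1, plus strand, with its first base at 2827177 and its last at 2827685 because an intron parts it, and has 3 mismatches. The CSD2 site lies in coding sequence at chr2:12015572-12015592, plus strand, with 5 mismatches and 3 G:U pairs. The CCS1 site is coding, at chr1:4267521-4267541 on the minus strand, with 4 mismatches and 1 G:U pair. Scored with 1 for a mismatch and 0.5 for a G:U pair and with no gaps, these matches had penalties of 3 for CSD1, 4.5 for CCS1 and 6.5 for CSD2. The best matches in FSD1 (5.5), CAT2 (6) and CAT3 (6) scored no worse than that of CSD2, so the score alone does not set CSD2 apart. A match of letters is a description and shows no cleavage. The precursors were not measured at a usable level: over all 60 libraries MIR398B was at 0, and MIR398A and MIR398C reached at most 3.99 and 4.33 normalised counts.

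CSD2, the chloroplast enzyme, was higher in leaves of plants that received both stresses, on the same leaf or on different leaves. Its normalised counts were 14628, 15381 and 14313 in control leaf. They were 18179, 17979 and 18774 after 2 min of HL+HS, and 17973, 18766 and 18016 in the HL leaf of HL&HS plants. In the HS leaf they were 19039, 18472 and 18281. With 1 stress for 2 min CSD2 read 15301, 14810 and 15221 under HL and 13499, 13697 and 13608 under HS. Taking both times, CSD2 ran from 17597 to 21693 in the 18 leaf libraries whose plant had HL and HS, and from 13499 to 16925 in the remaining 15, without overlap. The largest values were in the HS leaf at 8 min, at 21693, 21015 and 20023. The mesophyll markers RBCS1A, RCA, CA1, CAB3 and CAB1 moved with this group: their sum was 1488620 to 1586230 normalised counts there and 1057660 to 1088990 in control leaf, with 5 of 5 called higher in both leaves of HL&HS plants at 8 min. In the other leaf comparisons 2 to 4 of the 5 were called higher and none lower. By group mean the sum was 1248160 to 1533310 in all leaf groups of plants given both stresses. It was 1074320 to 1166420 in the control and single-stress groups, the same division as for CSD2. Single libraries overlapped, with 1188490 the lowest after 2 min of HL+HS and 1225700 the highest after 8 min of HL. The phloem markers APL and SUC2 summed to 5159 to 5624 in those leaves at 8 min and to 4346 to 4536 in control, both called higher. The part of these markers in the CSD2 values was not tested.

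Against control CSD2 rose by 0.31 ± 0.040 (SE) on the log2 scale under HL+HS at 2 min (adjusted p = 3.15e-08), by 0.31 in the HL leaf (5.60e-08) and by 0.33 in the HS leaf (6.46e-09). At 8 min the corresponding differences were 0.29 (8.61e-08), 0.32 (1.48e-08) and 0.50 (6.02e-14). Single stresses gave 0.03 for HL and -0.12 for HS at 2 min, and 0.10 for HL and -0.05 for HS at 8 min. Of these 4, HS at 2 min (adjusted p = 0.0296) and HL at 8 min (0.0445) were called. The first was lost without a filter on low values, and the second with DESeq2 and with the 0 and 8 min libraries alone. In stem CSD2 rose in 6 of 8 comparisons by 0.13 to 0.22, and the stem of HL+HS plants gave 0.06 at 2 min and -0.01 at 8 min, neither called. The stem calls for HS at 2 min and HL&HS at 8 min were lost without control library 2 or 3, the first also without HS library 3, and that for HL&HS at 2 min without control library 3.

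CSD1, the cytosolic enzyme, did not follow it. Its 33 leaf libraries ranged from 5741 to 7382 normalised counts with a median of 6557, and its 27 stem libraries from 6294 to 7303 with a median of 6866. The single call in 18 comparisons was the leaf after 8 min of HS, at 5978, 5741 and 5820 normalised counts against 6503, 6899 and 6309 in control, a difference of -0.17 (adjusted p = 0.000625). About 4.7% of its exonic bases overlap a gene on the other strand, and whether the authors' counting used strand is not given in the sources used here.

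CCS1, the chaperone, shared part of the pattern of CSD2 in leaf. It read 4149, 4076 and 3826 normalised counts in control. After 2 min it fell under HL (-0.11, adjusted p = 0.0388) and HS (-0.22, 8.27e-05) and rose under HL+HS (0.18, 0.000567). Leaves of HL&HS plants were also higher, by 0.16 with HL (0.00260) and by 0.19 with HS (0.000237). At 8 min it fell under HS (-0.20) and rose in the HL leaf (0.14) and the HS leaf (0.29, adjusted p = 1.58e-07), and HL+HS gave 0.01, not called. In none of the 8 stem comparisons was CCS1 called. COX5b-1, a mitochondrial oxidase subunit and known miR398 target, differed from both: it fell in 6 of 10 leaf comparisons, HL, HS and HL+HS at 2 min among them, and rose in 5 of 8 stem comparisons.

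**Figure D2:**
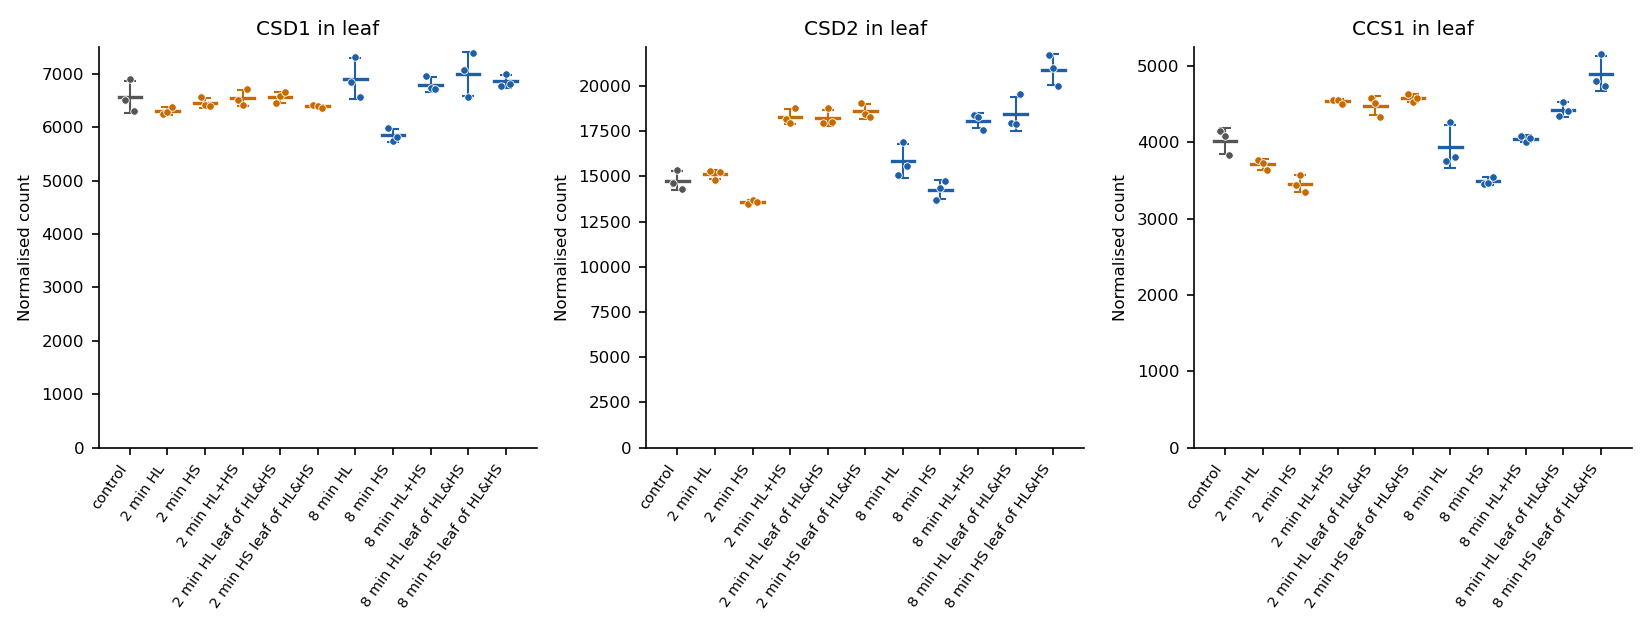
Normalised counts of CSD1, CSD2 and CCS1 in the 33 leaf libraries, by group, with points for libraries, a bar for the mean and whiskers of 1 SD (n = 3), in grey for control, orange for 2 min and blue for 8 min. The groups of plants given both stresses sit between 17597 and 21693 in the CSD2 panel, above the others, and CSD1 stays between 5741 and 7382.

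The copper list held 16 genes: CCS1, other miR398 or miR408 targets, precursors, transporters and chaperones of copper, and SPL7. Of these, 10 passed the filter on low values in leaf, and 1 to 4 rose and 1 to 4 fell in each leaf comparison. Of all genes, 11% to 24.6% rose and 6.77% to 17.8% fell. The upper counts lie above these shares, and none was tested against them. COPT2 lay below its control mean of 234 normalised counts in all 10 stressed leaf groups (115 to 210). COX5b-1 also lay below its own of 1138 in each (1027 to 1117). FRO4 lay above its control mean of 43.0 in each (45.3 to 133). The other genes of the 10 lay on both sides of theirs. The median difference of the 10 under HL+HS at 2 min was -0.06, with 0.01 over all genes, and in the HS leaf at 8 min 0.13 with 0.02. In stem 1 to 3 rose and 1 to 3 fell in each of the 8 comparisons. Of all genes, 15.7% to 22% rose and 15% to 22.3% fell there, and the counts were not tested against these shares.

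CSD3, the peroxisomal enzyme, was low in leaf, with 327, 370 and 363 normalised counts in control. It reached 452, 467 and 416 after 8 min of HL+HS (difference 0.33, adjusted p = 0.000435) and 467, 455 and 428 in the HS leaf at 8 min (0.35, 0.000186), and neither set overlapped the control. In the HS leaf at 2 min it rose by 0.24 (adjusted p = 0.0129), a call lost without control library 1 or HS leaf library 2. Its calls under HS and in the HL leaf at 8 min, at 0.20 each, were both lost with edgeR and DESeq2. In stem the single call was at 8 min of HL&HS (0.22), which DESeq2 did not make. An overlap with genes on the other strand covers 25.1% of the exonic bases of CSD3, so its reads and theirs may not be separated.

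FSD1, the iron enzyme that is known to rise when copper is scarce, had the widest range of the 10. Its leaf libraries ran from 513 to 2292 normalised counts and its stem libraries from 4.96 to 103. The 250 bases before its annotated start (RefSeq TAIR10.1, chr4:12887012-12887261, minus strand) are shown because FSD1 is known as a target of SPL7, which binds the letters GTAC. They hold that motif 1 time, in capitals, 145 bases before the start. GTAC reads the same on both strands and is found in 34.3% of the 27443 promoter windows of this length.
FSD1: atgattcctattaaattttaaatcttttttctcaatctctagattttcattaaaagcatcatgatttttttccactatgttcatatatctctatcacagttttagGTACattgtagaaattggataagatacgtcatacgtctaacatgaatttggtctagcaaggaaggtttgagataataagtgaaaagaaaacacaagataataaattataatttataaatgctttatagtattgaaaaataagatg

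In leaf at 2 min FSD1 rose with a single stress and fell with both. Control read 1079, 1064 and 1074 normalised counts. HL gave 1583, 1554 and 1637 and HS gave 2232, 2207 and 2163. HL+HS gave 765, 755 and 756. The leaves of HL&HS plants were as low, although each received only 1 of the stresses: the HL leaf read 528, 543 and 513 and the HS leaf 825, 776 and 666. All libraries of single-stress plants were above the control and all libraries of plants given both were below it.

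The differences from control at 2 min were 0.57 ± 0.077 (SE) for HL (adjusted p = 2.76e-07) and 1.04 for HS (1.24e-13). They were -0.50 for HL+HS (1.44e-06), -1.02 for the HL leaf (5.19e-14) and -0.51 for the HS leaf (9.74e-07). HL+HS departed from the sum of the 2 single responses by -2.10 ± 0.11 (SE; adjusted p = 2.73e-19). Direct differences that leave out the control means were -1.59 for the HL leaf against HL alone (5.09e-20) and -1.55 for the HS leaf against HS alone (5.18e-20). These direct tests compare 2 min libraries with each other and so do not cross the difference in depth.

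At 8 min the pattern in leaf had changed. FSD1 read 1358, 1404 and 1449 normalised counts under HL and 1902, 1686 and 1710 under HS. HL+HS gave 1055, 1174 and 951, which overlapped the control. The HL leaf of HL&HS plants read 2012, 1773 and 1978 and the HS leaf 2292, 1659 and 1746, so these leaves were now above the control. The differences were 0.39 for HL (adjusted p = 9.99e-05), 0.72 for HS (3.82e-10), -0.02 for HL+HS (0.858), 0.84 for the HL leaf (7.32e-12) and 0.81 for the HS leaf (1.10e-11). The departure of HL+HS from the summed single responses was -1.13 ± 0.11 (SE; adjusted p = 2.87e-11). FSD1 rose by 0.45 in the HL leaf against HL alone (1.26e-05), while the HS leaf against HS alone was not called. With the titles of the single-stress groups at 8 min exchanged, the first of these was no longer called. The HL leaf (0.84 from control) is then set against the group at 0.72, and the HS leaf (0.81) against that at 0.39. The larger gap thus moves to the HS leaf.

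**Figure D3:**
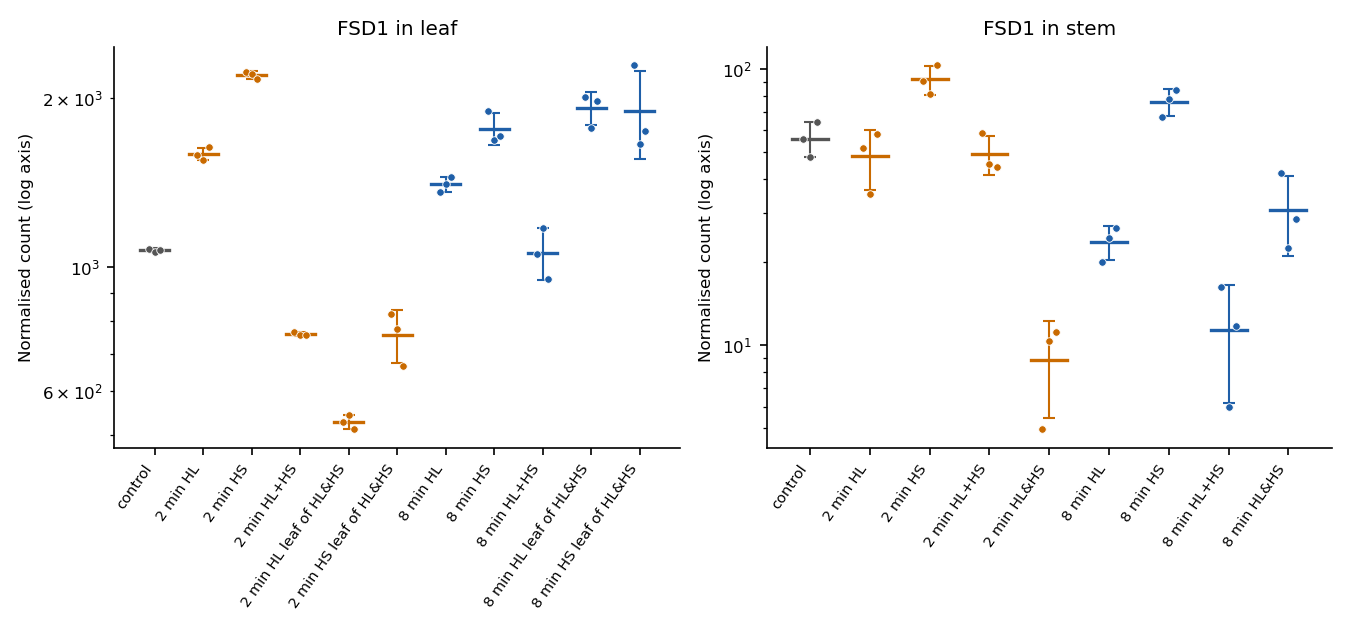
Normalised counts of FSD1 on a log axis in 33 leaf libraries (left) and 27 stem libraries (right), by group, with points for libraries, a bar for the mean and whiskers of 1 SD (n = 3), in grey for control, orange for 2 min and blue for 8 min. In leaf at 2 min the single stresses lie above the control and the groups given both stresses below it, and in stem the 2 min HL&HS and 8 min HL+HS groups are lowest.

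In stem FSD1 was scarce and its values rest on few reads. Control libraries read 55.7, 48.0 and 64.2 normalised counts, from 38, 29 and 38 reads. After 2 min of HL&HS it was at 4.96, 10.3 and 11.2, from 12, 23 and 26 reads in deeper libraries, a difference of -2.59 ± 0.26 (SE; adjusted p = 1.48e-10). After 8 min of HL+HS it was at 16.2, 5.98 and 11.7, from 10, 4 and 7 reads (-2.30, adjusted p = 3.78e-09). Neither group overlapped the control.

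The other stem groups were mixed. HL at 8 min gave 19.99, 24.4 and 26.5 normalised counts (-1.21, adjusted p = 0.000234), and HL&HS at 8 min gave 41.9, 22.5 and 28.6 (-0.87, 0.00709), a call that was lost without its library 2. HS at 2 min gave 90.6, 81.3 and 103 (0.71, 0.0378), all above the control, and that call was lost with no filter on low values and without control library 1 or 2 or HS library 1 or 3. HS at 8 min, at 66.9, 77.6 and 83.7, was above the control without being called (0.44, 0.202). HL (-0.23) and HL+HS (-0.18) at 2 min overlapped it. In the direct test between stems, HL&HS differed from HL+HS by -2.41 at 2 min (adjusted p = 2.10e-08) and by 1.43 at 8 min (3.45e-05).

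CPN20, a chloroplast co-chaperonin known to activate FSD1, rose in all 18 comparisons, by 0.17 to 0.53 in leaf and 0.20 to 0.61 in stem. Its direction was thus the same where FSD1 rose and where FSD1 fell. Genes on the other strand overlap 23.8% of the exonic bases of CPN20, so its reads and theirs may not be separated.

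FSD2 and FSD3 are known to form a pair in the chloroplast nucleoid and to belong, as PAP9 and PAP4, to the proteins attached to the plastid-encoded RNA polymerase, which transcribes photosynthesis genes. Both rose in stem in 7 of 8 comparisons, the exception being HL+HS at 8 min. FSD2 read 245, 225 and 236 normalised counts in control stem and 381, 390 and 409 after 2 min of HL, without overlap. FSD3 read 399, 501 and 459 in control stem and 699, 722 and 705 after 2 min of HL, also without overlap. The differences were 0.74 ± 0.081 (SE) for FSD2 (adjusted p = 8.76e-10) and 0.65 ± 0.077 for FSD3 (4.63e-09).

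After 2 min of HL&HS the stem differences were 0.67 for FSD2 (adjusted p = 7.72e-09) and 0.61 for FSD3 (2.33e-08). HS gave 0.31 and 0.41 and HL+HS gave 0.34 and 0.29 at 2 min, each called. At 8 min HL gave 0.53 and 0.44, HS 0.28 and 0.35, and HL&HS 0.60 and 0.56, each called. Stems of HL+HS plants at 8 min were back at the control level, with FSD2 at 224, 233 and 248 (difference 0.00) and FSD3 at 492, 384 and 437 (-0.05). Directly compared at 8 min, HL&HS was above HL+HS by 0.60 for FSD2 (adjusted p = 1.38e-07) and 0.61 for FSD3 (3.29e-08). The summed secondary-wall level in stem was 66353 in that HL+HS group, the nearest of the stressed groups to the control, and 40049 in the HL&HS group at 8 min. The floral markers AP1, AP3, PI, AG and LFY, of which 3 passed the filter on low values in stem, summed to 20.1 to 32.5 normalised counts in that HL+HS group, with 2 of the 5 at 0, to 94.6 to 103 in the control and to 89.9 to 95.4 in the HL&HS group. Of those 3, all were called lower in the HL+HS group and none in the HL&HS group at 8 min. They were also lower in stem after 2 min of HL+HS and 8 min of HS, where FSD2 and FSD3 rose. In stem the 5 mesophyll markers summed to 584624 to 620626 normalised counts in the 8 min HL+HS group and to 608435 to 660944 in the control. They summed to 672986 to 698851 in the 8 min HL&HS group. By mean the 8 min HL+HS group was the lowest in stem, at 596980. Of the 5, 1 was called higher and 1 lower there, and 2 were called higher in the 8 min HL&HS group. The part of these markers in the FSD2 and FSD3 differences was not tested.

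**Figure D4:**
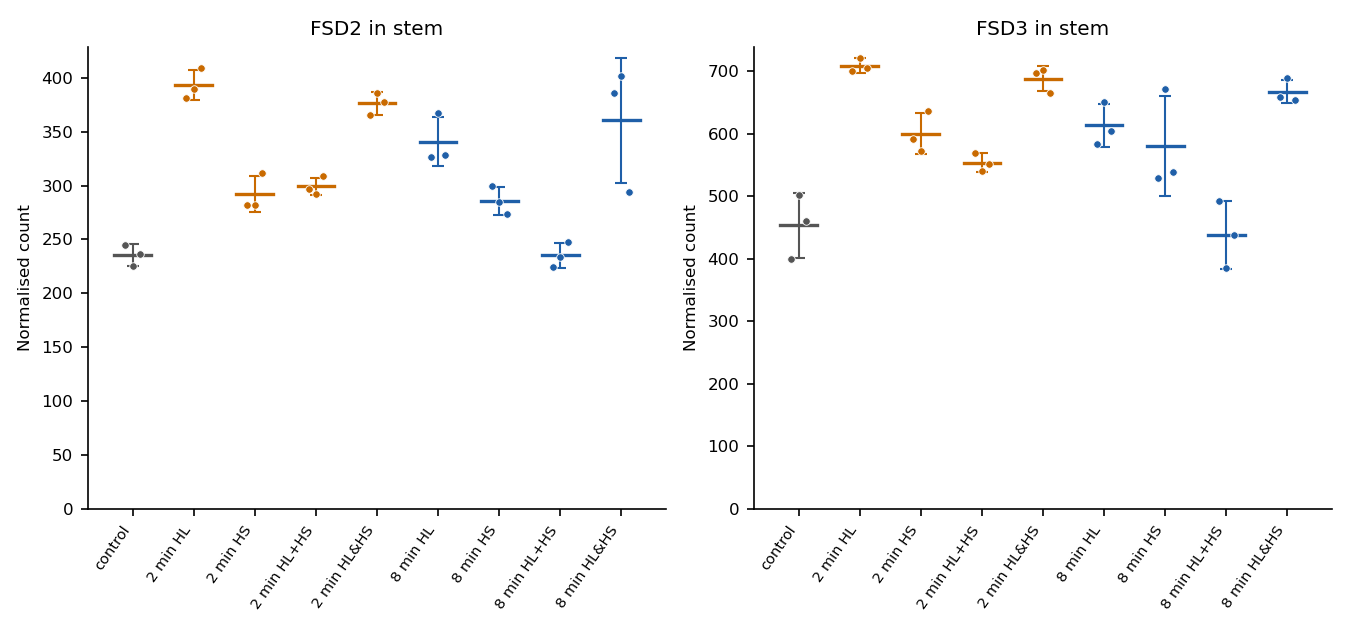
Normalised counts of FSD2 and FSD3 in the 27 stem libraries, by group, with points for libraries, a bar for the mean and whiskers of 1 SD (n = 3), in grey for control, orange for 2 min and blue for 8 min. Both genes lie above the control in the 2 min groups and come back to it in the 8 min HL+HS group, where FSD2 is at 224 to 248.

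The 10 other polymerase-associated proteins on the list, PAP1 to PAP3, PAP5 to PAP8 and PAP10 to PAP12, were counted in the same stems. All 10 rose after 2 min of HL, and 9 each after HS, HL+HS and HL&HS. Of all genes, 21%, 15.7%, 17.8% and 19.9% rose in these comparisons, in that order. At 8 min 9 rose after HL, 7 after HS and 8 after HL&HS, where 22%, 17.9% and 20.6% of all genes rose. After HL+HS 2 rose and 1 fell, near the background of 18.1% and 15.4% of all genes. The list's median difference was 0.44 for HL at 2 min with -0.00 over all genes, and 0.03 for HL+HS at 8 min with 0.01 over all genes.

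In leaf FSD2 was called in 3 of 10 comparisons with control and FSD3 in 3. FSD2 fell after 8 min of HS, at 281, 283 and 285 normalised counts against 355, 362 and 388 in control (-0.38, adjusted p = 0.000353), and rose to 526, 440 and 454 at that time where HL was on another leaf (0.36, 0.000465). Its difference after 8 min of HL, -0.25, was a call lost when only the 0 and 8 min libraries were fitted, and without control library 3 or HL library 3. FSD3 rose in the HL leaf of HL&HS plants, by 0.27 at both times (adjusted p = 0.0106 and 0.0115), and its call under HL at 8 min (0.22) was not made by edgeR or DESeq2. In differences that leave out the control means, leaves of HL&HS plants were higher than leaves under the same stress alone for both genes in 3 of 4 comparisons. These were HL at 2 min (0.33 for FSD2 and 0.25 for FSD3) and HS at 2 min (0.34 and 0.22) and 8 min (0.74 and 0.25). For HL at 8 min FSD2 was higher by 0.43 and FSD3 was not called (0.05). edgeR and DESeq2 did not make the FSD3 call for HS at 8 min. Of the 10 PAP genes, 9 fell in leaf after 8 min of HS, where 14.1% of all genes fell. The median difference of the 10 was -0.28. A small share of the exonic sequence of FSD2, 2.72% of its 50-base windows, also occurs elsewhere in the genome.

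MSD1, the mitochondrial enzyme, moved little. It ranged from 2094 to 2948 normalised counts in leaf and from 2269 to 2730 in stem. It rose in 6 of 8 stem comparisons, by 0.12 to 0.18, of which edgeR did not make the call for HS at 8 min. The call for HL at 2 min was lost without control library 1. In leaf the HS leaf at 8 min was highest relative to control, at 2576, 2746 and 2707 against 2393, 2294 and 2094 (0.25, adjusted p = 0.000152). The call in the HL leaf at 8 min (0.14) was lost with edgeR and DESeq2, that under HL at 8 min (0.20) without HL library 2, and that under HL+HS at 2 min (0.18) without control library 3. MTM1, a mitochondrial carrier whose yeast counterpart is needed to activate the manganese enzyme, fell in all 8 stem comparisons, by -0.29 to -0.65, and in 6 of 10 in leaf, while in both leaves of HL&HS plants at 8 min it rose. MSD2, a secreted manganese enzyme, did not pass the filter on low values.

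The catalases differed by tissue and from each other. CAT2, the main leaf catalase, fell in stem in all 8 comparisons. Its control stem libraries read 15818, 15719 and 15377 normalised counts, and the 24 stressed stem libraries ranged from 7961 to 11166 with a median of 10229, so no library overlapped. The lowest group was HL+HS at 2 min, at 8154, 8045 and 8018, with a difference of -0.95 ± 0.060 (SE; adjusted p = 2.44e-16). HL+HS at 8 min gave -0.83 (1.91e-14) and HL at 8 min -0.79 (4.48e-14). The other 5 differences lay between -0.53 and -0.61. The mesophyll markers summed on average to 630429 normalised counts in control stem. With HL+HS they summed to 609204 at 2 min and 596980 at 8 min, the lowest means in stem, and with HL at 8 min to 653996. The part of these markers in the CAT2 differences was not tested.

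The windows before CAT2 (chr4:16703505-16703754, minus strand) and CAT3 (chr1:7142722-7142971, plus strand) are shown, from RefSeq TAIR10.1, because CAT2 is the leading catalase in leaf and CAT3 in stem. Capitals mark GTAC in CAT2, 197 and 8 bases before the start, and the evening element AAAATATCT in CAT3, searched on both strands and found in 2.36% of all windows. Neither window holds GAANNTTC or TTCNNGAA, pieces of the heat-shock element found in 9.55% and 7.68% of windows, or the G-box CACGTG, found in 6.49%.
CAT2: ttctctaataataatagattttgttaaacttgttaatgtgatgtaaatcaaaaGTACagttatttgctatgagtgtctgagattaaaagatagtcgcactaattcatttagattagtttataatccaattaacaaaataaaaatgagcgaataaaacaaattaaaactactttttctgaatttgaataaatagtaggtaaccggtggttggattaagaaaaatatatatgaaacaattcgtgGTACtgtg
CAT3: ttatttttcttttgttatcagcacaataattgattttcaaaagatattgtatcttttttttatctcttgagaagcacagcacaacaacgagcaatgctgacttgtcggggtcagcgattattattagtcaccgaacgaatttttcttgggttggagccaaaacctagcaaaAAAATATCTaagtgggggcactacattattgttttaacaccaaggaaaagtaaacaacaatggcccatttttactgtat

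In leaf CAT2 changed by less. It fell under HS at 2 min, from 130081, 128944 and 130310 normalised counts in control to 114852, 114826 and 115269 (-0.17, adjusted p = 6.76e-05), and under HL+HS at 2 min, to 110745, 113340 and 116229 (-0.19, 4.89e-06). At 8 min it fell under HL (-0.20), HS (-0.22) and HL+HS (-0.17). Leaves of HL&HS plants were not called at either time. At 2 min they read at most 128704, below all control libraries, and at 8 min 132426 to 139311, above all of them. Against the single stress at 8 min the HL leaf was higher by 0.26 (adjusted p = 2.41e-08) and the HS leaf by 0.27 (5.50e-09).

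CAT3, a catalase of vascular and senescing tissue, rose in leaf in 8 of 10 comparisons. From 10884, 11997 and 11265 normalised counts in control it went to 18485, 18739 and 20776 after 2 min of HL+HS, a difference of 0.76 ± 0.048 (SE; adjusted p = 1.83e-16), and to 17280, 17966 and 16876 after 8 min (0.61, 7.47e-14). After 2 min HS gave 15221, 16016 and 14689 (0.43, 5.48e-09), and HL gave 9582, 10228 and 10124, below all control libraries (-0.19, 0.00330). HL+HS exceeded the summed single responses by 0.52 at 2 min (5.97e-08), and at 8 min that departure was not called.

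The share of CAT3 in the catalase level per kb in leaf went from 6.67% in control to 12.2% under HL+HS at 2 min and was lowest, at 5.80%, under HL at 2 min. HL leaves of HL&HS plants at 8 min read 14909, 14080 and 13977 (0.33, adjusted p = 5.36e-07). In the same 3 libraries the secondary-wall genes of the stem summed to 1813, 1566 and 4066 normalised counts, against 904 to 999 in control leaf, with 9 of 10 called higher, and in HL leaves at 8 min to 1463 to 1603 with 6 of 10 called higher. The phloem markers were also higher in the HL leaf of HL&HS plants at 8 min, at 5159 to 5397. Under HL+HS, where CAT3 was highest, the secondary-wall genes summed to 1084 to 1306 at 2 min, with 3 of 10 called higher. At 8 min they summed to 865 to 945, with 0 called higher and 1 lower. The phloem markers there summed to 4709 to 5548 at 2 min and 4622 to 5360 at 8 min. Of these 2 markers, 1 was called higher at each time. The part of these markers in the CAT3 values was not tested. At 8 min the HS leaf of HL&HS plants, with CAT3 at 11067, 10350 and 12109, overlapped the control (-0.03, adjusted p = 0.674).

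In stem CAT3 moved in both directions. It rose in HL+HS plants, from 52383, 50923 and 52126 normalised counts in control to 57447, 55496 and 58516 at 2 min (0.14, adjusted p = 0.00895) and to 59839, 61516 and 61436 at 8 min (0.23, 3.84e-05), and after 8 min of HS (0.13). It fell after 2 min of HL, to 45501, 42561 and 43868 (-0.24, 2.15e-05), and in HL&HS plants (-0.14 and -0.13). The calls for HL+HS and for HL&HS at 2 min were lost without library 3 of each, and that for HS at 8 min without control library 2 or HS library 3. With the fall of CAT2, the CAT3 share of the stem catalase level rose from 72.5% in control to 77.1% to 84.4% in the stressed groups. Between the stems of HL&HS and HL+HS plants CAT3 differed by -0.28 at 2 min (adjusted p = 3.05e-05) and -0.37 at 8 min (8.98e-09), and CAT2 by 0.34 (0.000205) and 0.29 (0.000130). For both genes these differences leave out the control means, while the spread was estimated over all stem libraries, the control included.

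**Figure D5:**
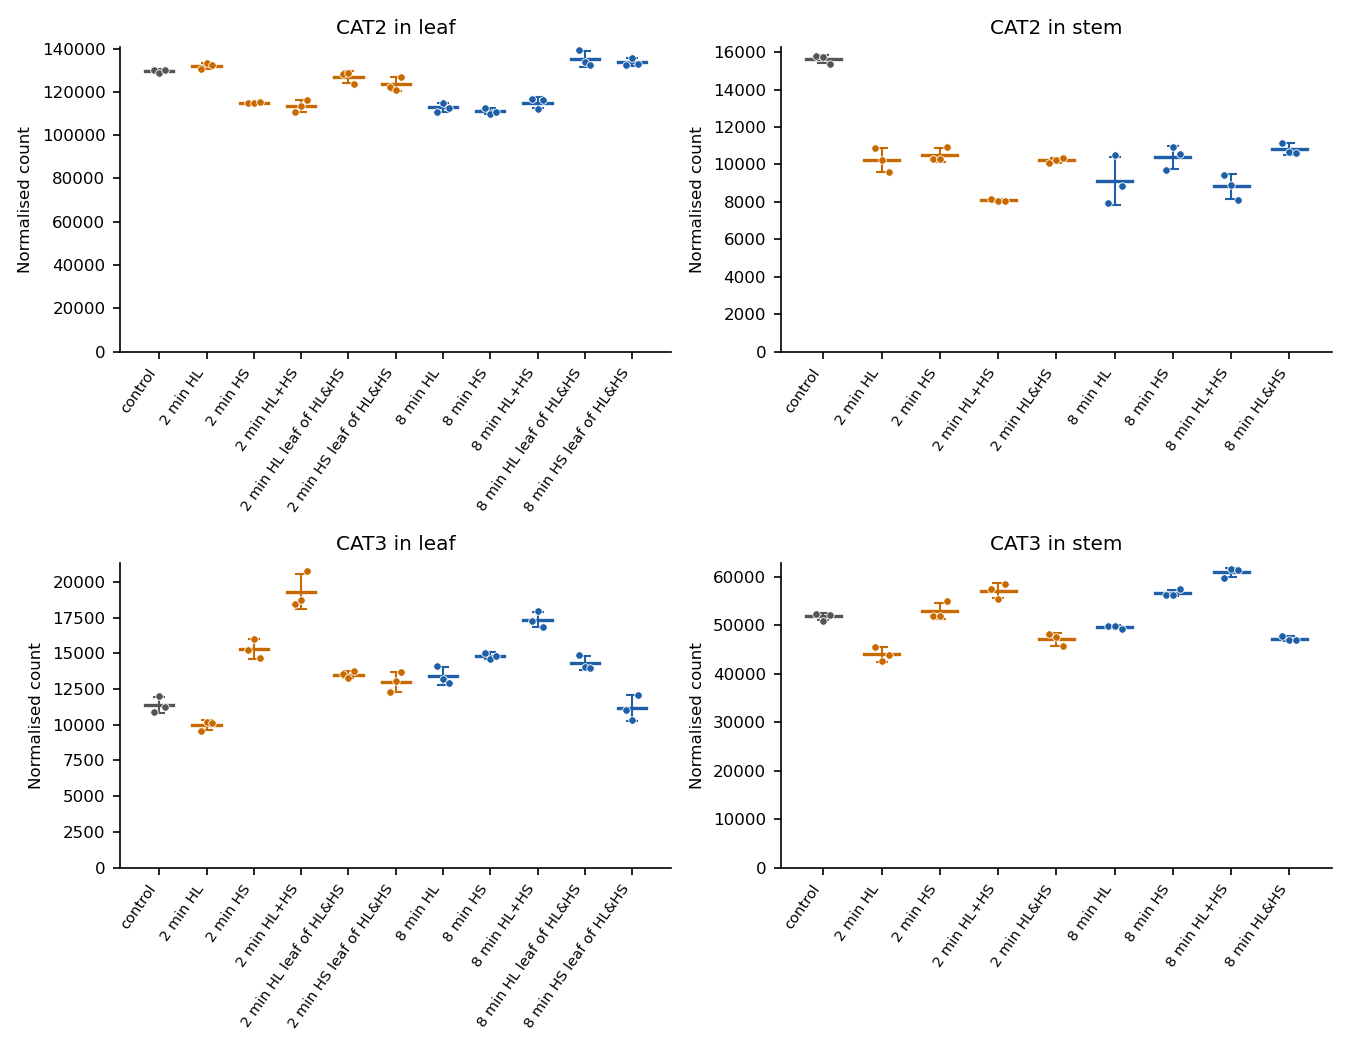
Normalised counts of CAT2 (top) and CAT3 (bottom) in 33 leaf libraries (left) and 27 stem libraries (right), by group, with points for libraries, a bar for the mean and whiskers of 1 SD (n = 3), in grey for control, orange for 2 min and blue for 8 min. In stem CAT2 drops from 15377 to 15818 in control to 7961 to 11166 in the stressed libraries, and in leaf CAT3 peaks under HL+HS at 2 min.

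CAT1, a catalase mostly of pollen and seeds, stayed between 248 and 436 normalised counts in leaf and 311 and 440 in stem. It fell at 8 min in the HS leaf, where HL was on another leaf, to 295, 248 and 288 from 366, 305 and 384 in control (-0.34, adjusted p = 0.00102), without overlap. Its calls at 8 min under HL and in the HL leaf, at 0.22 each, were lost with edgeR, with DESeq2 and with no filter on low values. In stem it rose after 2 min of HL+HS (0.23, adjusted p = 0.0161), a call lost without control library 1 or 3 or HL+HS library 3. CAT1 lies 95 bases downstream of CAT3 on the same strand, and CAT3 is far more abundant.

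NCA1, a chaperone that catalases need for activity, rose in leaf under HL+HS at 2 min (0.14) and 8 min (0.11) and in the HS leaf at 2 min (0.11), and fell under HL at 8 min (-0.12). LSD1, a zinc-finger protein known to bind catalases, rose in 9 of 10 leaf comparisons, up to 0.51 in the HS leaf at 8 min. Neither was called in any of the 8 stem comparisons. The photorespiration list, enzymes of the pathway whose peroxide CAT2 removes, had 17 genes, of which 16 passed the filter on low values. In stem, where CAT2 fell throughout, 10 of the 16 fell and 1 rose under HL+HS at 2 min (median -0.20) and under HL at 8 min (-0.24), and 9 fell and none rose under HL+HS at 8 min (-0.19). The other 5 stem comparisons were mixed: 4 rose and 5 fell for HL and for HS at 2 min, 2 rose and 6 fell for HL&HS at 2 min, 1 rose and 4 fell for HS at 8 min, and 1 rose and 7 fell for HL&HS at 8 min. Of all genes, 15.7% to 22% rose and 15% to 22.3% fell in the stem comparisons. In leaf more of the list rose than fell in all 10 comparisons. So did all genes, with 11% to 24.6% higher and 6.77% to 17.8% lower. The counts of the list were not tested against these shares. At 2 min 10 rose under HL and 11 under HL+HS with none lower, and under HS 3 rose and 2 fell. HL&HS plants at 2 min had 11 higher where HL was given and 14 where HS was given, none lower. At 8 min 6 rose and 5 fell under HL, 4 rose and 1 fell under HS, and 9 rose and 1 fell under HL+HS, while the HL leaf had 10 higher and the HS leaf 15, with none lower. CAT2 itself fell in leaf under HL+HS at both times (-0.19 and -0.17), where most of the list rose, and was not called in the HS leaf at 8 min, where the list's median was 0.27 with 0.02 over all genes. PGLP1 on that list has a near-identical copy in the genome, and its counts are uncertain.

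The remaining counts among the 10 genes set the stresses against each other. HL+HS departed from the summed single responses in leaf for 4 genes at 2 min, where 24.3% of all genes did, and for 5 at 8 min, against 33.1%. CSD2 (0.40 and 0.24), FSD2 (0.48 and 0.46) and FSD1 (-2.10 and -1.13) were called at both times. Between HL and HS alone in leaf 5 genes were called at 2 min, against 8.59% of all genes, and 7 at 8 min, against 22.5%. At 2 min the largest of these was CAT3, lower under HL by a difference of -0.62 (adjusted p = 9.54e-13).

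In the HL leaf of HL&HS plants against HL alone 5 genes were called at 2 min, where 18.7% of all genes were, and 4 at 8 min, against 29%. In the HS leaf against HS alone 8 were called at each time, against 29.5% and 38.6% of all genes. CSD2 and FSD2 rose in all 4 of these comparisons, by 0.22 to 0.55 and by 0.33 to 0.74. These differences leave out the control means, while the spread was estimated over all leaf libraries, the control included. In stem, HL&HS against HL+HS gave 5 called genes at 2 min, where 3.12% of all genes were called, and 7 at 8 min, against 37.8%. At 2 min the 5 were FSD1, FSD2, FSD3, CAT2 and CAT3.

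The response in leaf was tested against that in stem as the mean of HL, HS and HL+HS minus control in each tissue. At 2 min 4 of the 10 genes were called, against 28.2% of all genes, and at 8 min also 4, against 31.9%. CAT2 differed by 0.60 ± 0.060 (SE) at 2 min and 0.54 at 8 min, as it fell further in stem. CAT3 differed by 0.36 and 0.31. FSD2 differed by -0.59 and -0.54, and FSD3 by -0.40 at 2 min. For FSD2 at 2 min all 3 stem comparisons were called higher and no leaf comparison was called. At 8 min HL and HS were called higher in stem, HL+HS was not called there, and in leaf HL and HS were called lower, so both tissues enter the -0.54. FSD1 differed by 1.38 at 8 min.

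The genes most like each of the 10 were sought among 17240 genes by Pearson's r over the 20 group means, each centred on its tissue. These points share control libraries and depth classes, and r is given as a description. CSD2 was most like PSB29 (r = 0.96) and LPA3 (0.94), FSD2 most like ADSS (0.95) and EMB1586 (0.95), and FSD3 most like MORF9 (0.95) and PAC (0.93). CAT2 was most like RXW8 (0.96) and ATSPS4F (0.95). For FSD1 the highest r was 0.70, with scpl16, the lowest of the 10. The highest r was 0.86 for CAT3 (PSD3), 0.86 for CSD3 (AT4G14385), 0.85 for CSD1 (AT1G55340), 0.89 for MSD1 (HVA22H) and 0.82 for CAT1 (AT5G19440).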

How the data were processed

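Per the labels' protocols, RNA was extracted with the RNeasy kit and sequenced single-end on a NextSeq. The submitters' processing notes name FastQC 0.11.7, STAR 2.4.0.1, DESeq2 1.20.0 and the build TAIR10, with no roles, and the counting tool, strand setting and annotation are not given in the sources used here. The authors deposited 1 table of normalised counts (a signal unit: counts divided by size factors over all 60 libraries). Each value was a whole multiple of 1 read for 100% of values, within 1e-06 of a whole read, and the recovered reads were used only in edgeR and DESeq2. All value columns matched a sample.

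Members, lists, markers and tests were chosen with earlier results of these data known. Genes with a mean of at least 10 normalised counts were tested (18231 in leaf, 18428 in stem, 18893 in both), and all 10 genes passed each filter. limma 3.58.1 (R 4.3.3) with a mean-variance trend was fitted to log2(normalised count + 1) over all groups of a tissue, without a replicate block, two-sided, with Benjamini-Hochberg adjustment over the genes tested in each comparison. The design had foreseen this test for normalised values, and the counts recovered from them went to edgeR 4.0.16 and DESeq2 1.42.0 as alternatives. All 10 genes were named, and of the lists those with a role at a member. The lists (copper and miR398, dismutase helpers, catalase helpers, plastid polymerase, photorespiration) are described by counts and medians. For the copper list the group means of COPT2, COX5b-1 and FRO4 in leaf are given as well. Replicates differed beyond sampling noise in all 60 pairs within groups (chi-square per gene 1.34 to 6.60).

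On simulated counts for leaf HL+HS at 8 min against control, limma recovered 45 of 50 genes changed 2-fold, 40 of 50 changed 0.5-fold, 23 of 50 at 1.25-fold and 24 of 50 at 0.8-fold, and called 28 unchanged genes among 18119 tested. For the same stem comparison it recovered 48, 45, 27 and 31 of 50 and called 43 unchanged genes among 18489 tested, where edgeR called 7 in leaf and 8 in stem. limma thus called more unchanged genes than edgeR in both. Only 50 genes were changed at each fold, whereas in the data 35.5% (leaf) and 33.6% (stem) of all genes were called in these comparisons. Every simulated gene also had the same fixed dispersion, and the groups other than the changed one were drawn from the control means. The rates in the real libraries may therefore differ.

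Sequences and gene models are from RefSeq TAIR10.1. Promoter windows are the 250 bases before the annotated start. A site in a transcript is the window of lowest penalty against miR398, with 1 for a mismatch and 0.5 for a G:U pair.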

Additional observations from a re-analysis of the deposited data

Results flagged for a closer look

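In 8 results the change in leaf differed from the change in stem by limma's test of the difference itself (mean of HL, HS and HL+HS minus control in leaf, minus the same in stem, Benjamini-Hochberg adjusted over all genes). At 2 min these were CAT2 (0.60, adjusted p = 1.37e-11), CAT3 (0.36, 2.33e-07), FSD2 (-0.59, 2.17e-06) and FSD3 (-0.40, 0.000944). At 8 min they were CAT2 (0.54, 1.53e-10), CAT3 (0.31, 2.76e-06), FSD2 (-0.54, 1.08e-05) and FSD1 (1.38, 1.52e-06). Each of the 3 stem responses was lower than each of the 3 leaf responses for CAT2 at both times. The stem responses share 3 control libraries, in which the secondary-wall genes summed to 88423 normalised counts, above all stressed stem groups, and the part of this in the result was not tested.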

How the results depend on the processing

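Each value was recomputed with pseudocount 0.1, no filter, rescaling within the tissue, edgeR, DESeq2, only the compared groups, a replicate block, each library left out, no leaf 8 min HL group and, at 8 min, exchanged single-stress titles. A fit of the 0 and 8 min libraries alone was added after seeing the data. The number of the 10 genes called in leaf at 8 min of HL against control, 8, became 5 with DESeq2, 3 with only the compared groups and 4 with the 0 and 8 min libraries alone. Over all genes, 5997 of 18231 calls became 5093 of 18231 with DESeq2 and 3490 of 18288 with only the compared groups. For the HL leaf of HL&HS plants at 8 min 7 became 4 with rescaling, edgeR, DESeq2 and the 0 and 8 min libraries alone. Over all genes 5273 of 18231 became 5251 of 18232 with rescaling, and 4367 and 4354 of 18231 with edgeR and DESeq2. For HL against HS at 8 min 7 became 3 with only the compared groups, where over all genes 4093 of 18231 became 1665 of 18332. For the HL leaf against HL alone 4 became 7 with exchanged titles. With 1 library left out these counts ranged from 4 to 7 for leaf 8 min HL, 4 to 7 for the HL leaf at 8 min, 3 to 5 for stem 2 min HS and 3 to 4 for stem 2 min HL&HS against HL+HS. Exchanged titles reversed CSD1 (-0.0093, adjusted p = 0.870) and FSD3 (-0.069, 0.540) in the HS leaf against HS alone at 8 min, and no other direction of a called gene reversed under any alternative. The cause was not tested. Calls lost, of 310 results, numbered 10 with DESeq2, 10 with edgeR, 9 with no filter and 16 with only the compared groups, 7 of 280 with rescaling and 12 of 140 in the added fit. In the 18 comparisons with control the replicate numbers did not pair stressed with control libraries of a tissue (correlation of same-numbered deviations -0.05 to 0.067). Pairing of leaf with stem, or of the HL leaf with the HS leaf of HL&HS plants, was not examined, and the tests treat these libraries as independent. The replicate block changed 1 call of 310, CSD3 in the HL leaf at 2 min, which gained it. The fewest reads lie behind FSD1 in stem, where 4 to 38 reads a library in the control and the lowest groups limit its fold changes.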
